A study of Rattus norvegicus with 65 samples.

Results

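The 9 genes described here code for the machinery of transforming growth factor beta (TGF-beta) signalling: the ligands Tgfb1, Tgfb2 and Tgfb3, the activin subunit Inhba, the latent binding protein Ltbp2, the receptors Tgfbr1 and Tgfbr2, and the intracellular proteins Smad3 and Smad7. They were picked out by rat gene symbol, with earlier results of these data known, and all 9 were among the 14554 genes of the count table and passed the filter on low counts. RNA was sequenced from cultures of primary neonatal rat cardiomyocytes (the beating muscle cells of the newborn heart) after a drug or its solvent had been in the medium for 6 or 24 h. The question was how each drug changed these transcripts against the solvent of its own wells, and whether the change at 24 h differed from that at 6 h. At 6 h, 6 libraries came from wells with 10 mM 5FU (5-fluorouracil), 6 from 2.5 mM Ace (acetaminophen) and 7 from 1.25 μM Dox (doxorubicin). At 24 h there were 6, 7 and 7. The solvent was DMSO, at 1% in the DMSO1 wells that serve as control for 5FU (6 libraries at each time) and at 0.25% in the DMSO2 wells that serve as control for Ace and Dox (7 at each time). All 10 groups had the same origin: cells from several litters were pooled before plating, kept in plating medium for more than a day, and then left overnight without serum before treatment. The libraries of a group are therefore parallel cultures of a shared cell preparation, so the p-values measure the spread between cultures and not between animals, and the labels give neither strain nor age beyond neonatal.

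TGF-beta ligands are secreted in a latent complex with their own propeptide and a latent TGF-beta binding protein, which is anchored in the extracellular matrix. Once released, a ligand binds the type II receptor (Tgfbr2), which then phosphorylates the type I receptor (Tgfbr1). The type I receptor phosphorylates Smad2 and Smad3, which enter the nucleus with Smad4 and regulate transcription, and Smad7, itself a target gene, blocks the receptor. In the heart the pathway is best known for driving fibroblasts to make matrix.

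Promoter sequences from RefSeq (rat assembly GRCr8) were matched to all 9 genes, as windows from 250 bases before to 50 bases after the annotated start, and searched on both strands for the Smad binding letters CAGAC, which read GTCTG when they lie on the opposite strand. They occurred in 2 of the 9 windows, those of Ltbp2 and Inhba, and in 13720 of the 27457 promoters in the table. The palindrome GTCTAGAC, the AP-1 letters TGAGTCA and the cAMP response letters TGACGTCA were in none of the 9, against 0.215%, 4.53% and 1.91% of all promoters. The E-box CACGTG was in the window of Tgfb2 alone (6.65% of all promoters) and the TATA box TATAAA in that of Inhba alone (14.3%). The 3 promoters that hold any of these letters are shown. All 3 genes rose under Dox at 24 h, as did Tgfbr1, Smad3 and Smad7, whose windows hold none of these letters. Each is printed from 250 bases before to 10 bases after the start, and capitals mark the letters found. All 3 genes lie on the minus strand. Ltbp2 is at chr6:110257289-110257548, and its Smad letters start 117, 85 and 9 bases before the gene start, the last of them as GTCTG. Inhba is at chr17:53804499-53804758, with its Smad letters across the start and its TATA box beginning 40 bases before it. Tgfb2 is at chr13:100792676-100792935, with its E-box beginning 229 bases before the start. A match of letters is a description of the window and shows no binding.
Ltbp2: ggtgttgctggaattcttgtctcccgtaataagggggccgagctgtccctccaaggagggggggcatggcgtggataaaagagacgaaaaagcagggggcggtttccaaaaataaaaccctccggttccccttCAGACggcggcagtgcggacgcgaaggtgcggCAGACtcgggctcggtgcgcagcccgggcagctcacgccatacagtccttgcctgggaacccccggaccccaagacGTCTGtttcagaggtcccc
Inhba: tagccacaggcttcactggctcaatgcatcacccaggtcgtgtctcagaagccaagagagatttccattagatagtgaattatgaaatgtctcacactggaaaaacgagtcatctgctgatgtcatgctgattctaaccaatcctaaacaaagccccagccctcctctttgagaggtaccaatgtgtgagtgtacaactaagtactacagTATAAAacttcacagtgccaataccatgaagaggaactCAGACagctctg
Tgfb2: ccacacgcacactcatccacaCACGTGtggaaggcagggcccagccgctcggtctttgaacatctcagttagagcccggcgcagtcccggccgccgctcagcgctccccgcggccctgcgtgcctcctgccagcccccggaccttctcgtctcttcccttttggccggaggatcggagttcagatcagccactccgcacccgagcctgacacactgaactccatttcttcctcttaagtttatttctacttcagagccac

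Library totals ran from 14332827 to 25738297 counts. Levels are CPM, the counts of a gene relative to its library total after TMM scaling, given as the lowest, median and highest library of a group. CPM is not corrected for transcript length, so a level is compared only with that of the same gene in other groups. Changes are log2 fold changes ± SE from edgeR's quasi-likelihood test, and a gene is called changed at a Benjamini-Hochberg FDR below 0.01 over all genes. In single libraries the 9 genes had from 57 counts (Inhba) to 5364 (Tgfb2). The labelled cell type was checked with 12 markers of cardiomyocytes. All 12 were in the table and none was at 0 throughout a group, but markers of fibroblasts (10 of 10 in the table), endothelial cells (9 of 10), macrophages (9 of 10) and smooth muscle or pericytes (8 of 8) were also present in every group. In such bulk RNA, fewer cells of a type and less RNA per cell cannot be told apart. In 3 libraries the summed smooth muscle markers stood below the rest of their group: library 3 of DMSO1 at 6 h (1234 CPM against at least 2373), library 7 of Dox at 6 h (1275 against at least 2576) and library 7 of Dox at 24 h (446 against at least 1422). Each of these 3 was also the lowest of its group in summed cardiomyocyte markers. Library 7 of Dox at 24 h was the lowest in summed fibroblast markers too (1851 CPM against at least 3038). Of the results that rest on these 3 libraries, several are also given without them, a choice made after the data were seen. Library 7 of Dox at 6 h was the lowest of its group for 7 of the 9 genes, and library 3 of DMSO1 at 6 h for 4. Leaving them out raises the means of their groups for those genes, so a call gained in this way is not separate support. The SE of every comparison comes from a single fit of all 10 groups. Leaving these 3 libraries out therefore also changes the SE of comparisons that hold none of them. A call gained there is not a check of the groups compared.

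Tgfb1 encodes the TGF-beta ligand that is most widely expressed. It varied least of the 9. Its group medians lay between 47.7 CPM (Ace, 24 h) and 64.4 CPM (DMSO2, 6 h), and the libraries of every group overlapped those of the next group in order of median. No drug comparison passed the test. The largest difference was that of 5FU at 24 h, -0.21 ± 0.12 (edgeR FDR = 0.12), and the 95% intervals of the 6 drug comparisons together ran from -0.45 to 0.19 on the log2 scale. A single library stood out, library 7 of Dox at 24 h, at 31.4 CPM where the other 6 had at least 49.6.

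**Figure D1:**
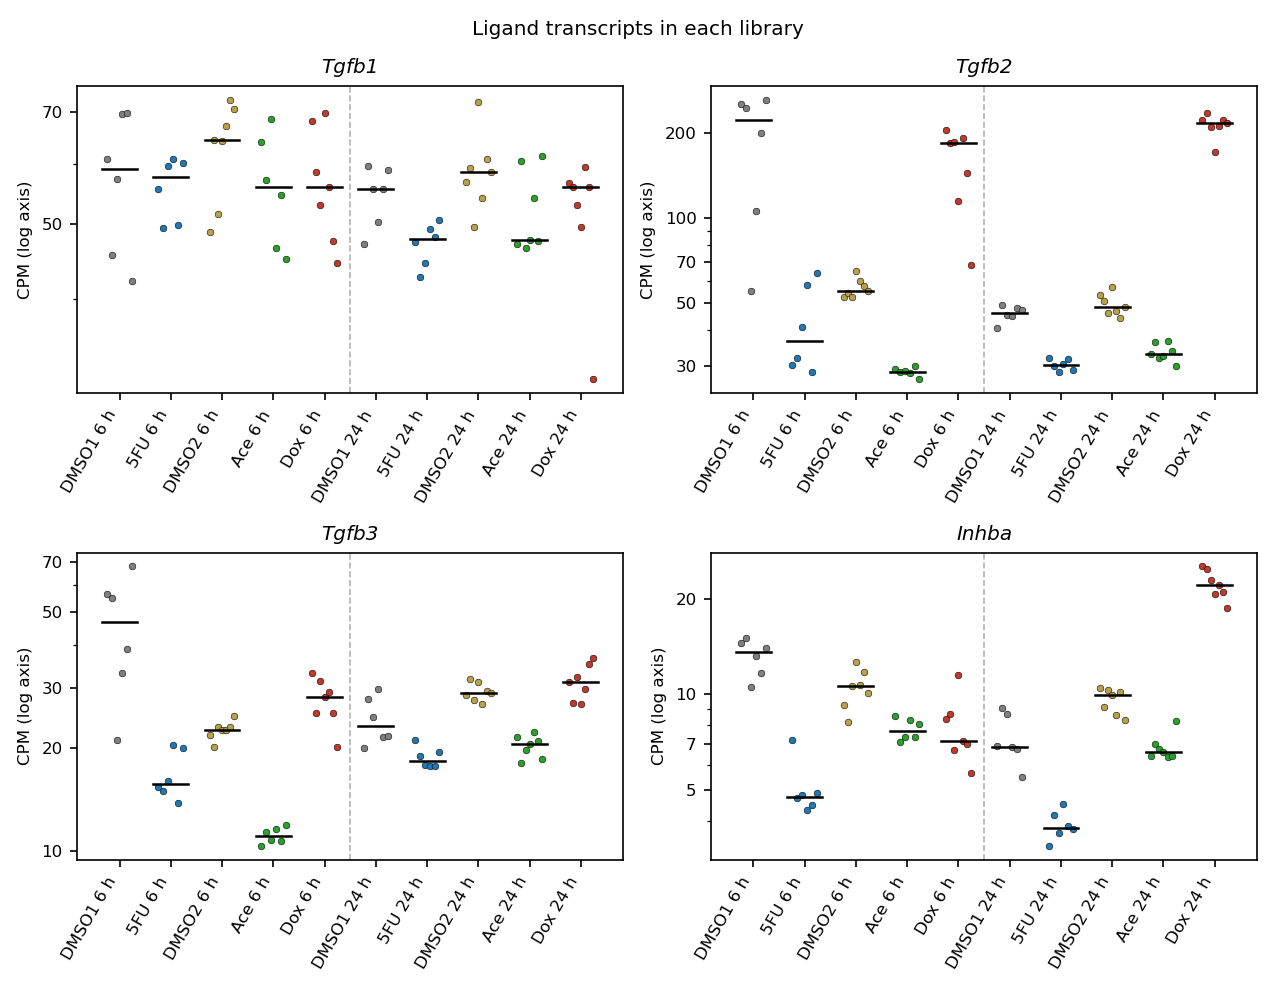
CPM (log axis) of the 4 ligand genes in each of the 65 libraries, with a bar at the median of each group and a dashed line between 6 and 24 h. Tgfb1 stays between 31.4 and 72.7 CPM throughout, Tgfb2 in the DMSO1 libraries at 6 h spreads from 54.9 to 261 CPM, and the Inhba libraries of Dox at 24 h lie above those of every other group.

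Tgfb2 encodes a ligand that needs the co-receptor Tgfbr3 to bind the type II receptor well, and it had the widest range of the 9. Against the control of each drug, it rose under Dox and fell under Ace and 5FU at both times. Under Dox at 6 h the lowest, median and highest libraries had 68.0, 184 and 205 CPM, against 52.3, 54.9 and 64.8 in DMSO2, a rise of 1.46 ± 0.18 (edgeR FDR = 1.4e-10). At 24 h Dox had 171, 216 and 234 CPM and DMSO2 44.1, 48.2 and 57, which is a 4.29-fold rise, 2.10 ± 0.18 (edgeR FDR = 2.4e-16). The Dox libraries lay above all DMSO2 libraries at both times, although at 6 h library 7 of Dox came close to them. The Ace libraries had 26.9, 28.6 and 29.9 CPM at 6 h and 30.02, 33 and 36.6 at 24 h, below every DMSO2 library each time. These falls were -0.99 ± 0.20 (edgeR FDR = 3.4e-05) and -0.57 ± 0.19 (edgeR FDR = 0.0095). The second of these calls is near the threshold and was lost in 13 of 14 fits that left out a library. Without the 3 libraries named above, none of them in the groups compared, the value was -0.56 ± 0.13 (edgeR FDR = 0.00026).

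The control of 5FU behaved differently from that of the other drugs for Tgfb2. In the DMSO1 wells at 6 h the 6 libraries had 252, 245, 54.9, 105, 199 and 261 CPM, and all but library 3 exceeded every DMSO2 library of that time. DMSO1 was above DMSO2 by 1.72 ± 0.19 (edgeR FDR = 2.3e-10) at 6 h but not at 24 h, -0.11 ± 0.19 (edgeR FDR = 0.84). Against DMSO1, 5FU at 6 h (28.5, 36.6 and 63.8 CPM) was lower by a factor of 4.39, -2.14 ± 0.20 (edgeR FDR = 3.1e-14), with overlap at library 3 of DMSO1. Set against the DMSO2 libraries of the same time, a comparison added after the spread of DMSO1 was seen, the difference was -0.42 and did not pass (edgeR FDR = 0.052). At 24 h 5FU had 28.6, 30.2 and 32 CPM and DMSO1 40.6, 46.2 and 49.2, with no overlap, -0.60 ± 0.20 (edgeR FDR = 0.0086), a call lost in 11 of 12 fits that left out a library. Without the 3 libraries that stood apart, none of them in these groups, the 24 h value was -0.61 ± 0.14 (edgeR FDR = 0.00022). In DMSO1 at 6 h the library with the lowest Tgfb2 also had the lowest summed smooth muscle markers, 1234 CPM, and the library with the highest Tgfb2 had the highest sum, 4507 CPM. In Dox at 6 h library 7 was lowest in both. The same held for the summed cardiomyocyte markers. Library 3 of DMSO1 at 6 h was lowest (47507 CPM), library 6 highest (70442 CPM), and library 7 of Dox at 6 h lowest (41261 CPM). The part of either cell type in the Tgfb2 values was not tested. Without the 3 libraries named above the DMSO1 difference at 6 h was 1.91 ± 0.14 (edgeR FDR = 7.5e-18) and the Dox rise 1.59 ± 0.13 (edgeR FDR = 1.1e-16).

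Tgfb3 encodes the third of these ligands. It fell under Ace at both times and under 5FU at 6 h. Ace libraries had 10.3, 11.1 and 11.9 CPM at 6 h, the lowest group of all and apart from every other group, against 20.1, 22.6 and 24.9 in DMSO2. The fall was -1.02 ± 0.14 (edgeR FDR = 8.1e-09) at 6 h and -0.53 ± 0.12 (edgeR FDR = 0.00029) at 24 h, when Ace had 18.1, 20.5 and 22.3 CPM and DMSO2 26.8, 29 and 31.9. The groups did not overlap at either time. 5FU had 13.8, 15.7 and 20.4 CPM at 6 h and DMSO1 21, 46.8 and 67.9, -1.43 ± 0.13 (edgeR FDR = 3.1e-14), again with no overlap. DMSO1 at 6 h stood above DMSO2 here too, by 1.0 ± 0.13 (edgeR FDR = 8.2e-09), and library 3 was again its lowest, at 21 CPM. Against DMSO2 the 5FU fall was smaller but still passed, -0.43 (edgeR FDR = 0.0039). At 24 h the 5FU difference was -0.37 ± 0.14 (edgeR FDR = 0.015), and it passed against DMSO2, -0.64 (edgeR FDR = 2e-05). It also passed without the 3 libraries, -0.38 ± 0.11 (edgeR FDR = 0.0015), but none of them is in the groups compared and the SE alone changed much. The Dox differences were 0.28 ± 0.12 (edgeR FDR = 0.036) and 0.10 ± 0.12 (edgeR FDR = 0.43) at 6 and 24 h. Without the 3 libraries, among them the lowest of Dox at 6 h, the 6 h value was 0.35 ± 0.10 (edgeR FDR = 0.0015), which passes.

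Inhba encodes the beta A subunit, which pairs to form activin A, a ligand that signals through Smad2 and Smad3 by its own receptors. Under Dox it changed direction between the times. At 6 h the Dox libraries had 5.64, 7.14 and 11.5 CPM and DMSO2 8.18, 10.6 and 12.7, a change of -0.41 ± 0.11 (edgeR FDR = 0.00056) with overlapping libraries. At 24 h Dox had 18.7, 22 and 25.3 CPM, above every library of every other group, and DMSO2 had 8.29, 9.95 and 10.5, so that Inhba rose 2.32-fold, 1.21 ± 0.10 (edgeR FDR = 7.6e-17). The difference between the effects was 1.63 ± 0.15 (edgeR FDR = 4.2e-15). Inhba fell under the other drugs at both times. With 5FU it was lowest, 4.32, 4.76 and 7.16 CPM at 6 h and 3.34, 3.80 and 4.52 at 24 h, against 10.5, 13.6 and 15.1 and 5.48, 6.83 and 9.09 in DMSO1. These falls were -1.38 ± 0.12 (edgeR FDR = 1.5e-15) and -0.91 ± 0.13 (edgeR FDR = 9.3e-09) with no overlap, and the 6 h fall was -1.05 against DMSO2 (edgeR FDR = 9.5e-12). The Ace falls were -0.43 ± 0.11 (edgeR FDR = 0.0013) and -0.49 ± 0.11 (edgeR FDR = 0.00016), the first with overlapping libraries.

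Ltbp2 encodes a protein of the latent TGF-beta binding family that sits on matrix fibrils and, unlike the other members of its family, does not bind latent TGF-beta itself. In control wells it fell with time in culture, from 77.3, 101 and 115 CPM in DMSO2 at 6 h to 27.4, 35.8 and 51.5 at 24 h and from 80.1, 96 and 119 to 39.9, 45.2 and 47.7 in DMSO1, a change of -1.24 ± 0.08 (edgeR FDR = 1.2e-20) over both. Under Dox at 24 h the level was 75.3, 107 and 124 CPM, within the range of the 6 h groups and above all control libraries of 24 h, a 2.79-fold difference from DMSO2, 1.48 ± 0.12 (edgeR FDR = 1.4e-18). Dox at 6 h differed by 0.28 ± 0.11 (edgeR FDR = 0.021). Library 7 was the lowest of the Dox libraries at 24 h, 75.3 CPM against at least 104. Without the 3 libraries the rise at 24 h was 1.55 ± 0.11 (edgeR FDR = 5.2e-20). The 6 h value was then 0.34 ± 0.11 (edgeR FDR = 0.0039), a call gained on leaving out the lowest Dox library of that time. Under 5FU at 24 h Ltbp2 had its lowest median, with 23.4, 25.8 and 28.6 CPM, below all DMSO1 libraries, -0.78 ± 0.13 (edgeR FDR = 2.8e-07). At 6 h the 5FU difference was 0.12 ± 0.12 (edgeR FDR = 0.40). The Ace values were -0.25 ± 0.12 (edgeR FDR = 0.080) and -0.33 ± 0.12 (edgeR FDR = 0.016). The second was called without the 3 libraries, -0.33 ± 0.11 (edgeR FDR = 0.0093), although none of them is in the groups compared.

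**Figure D2:**
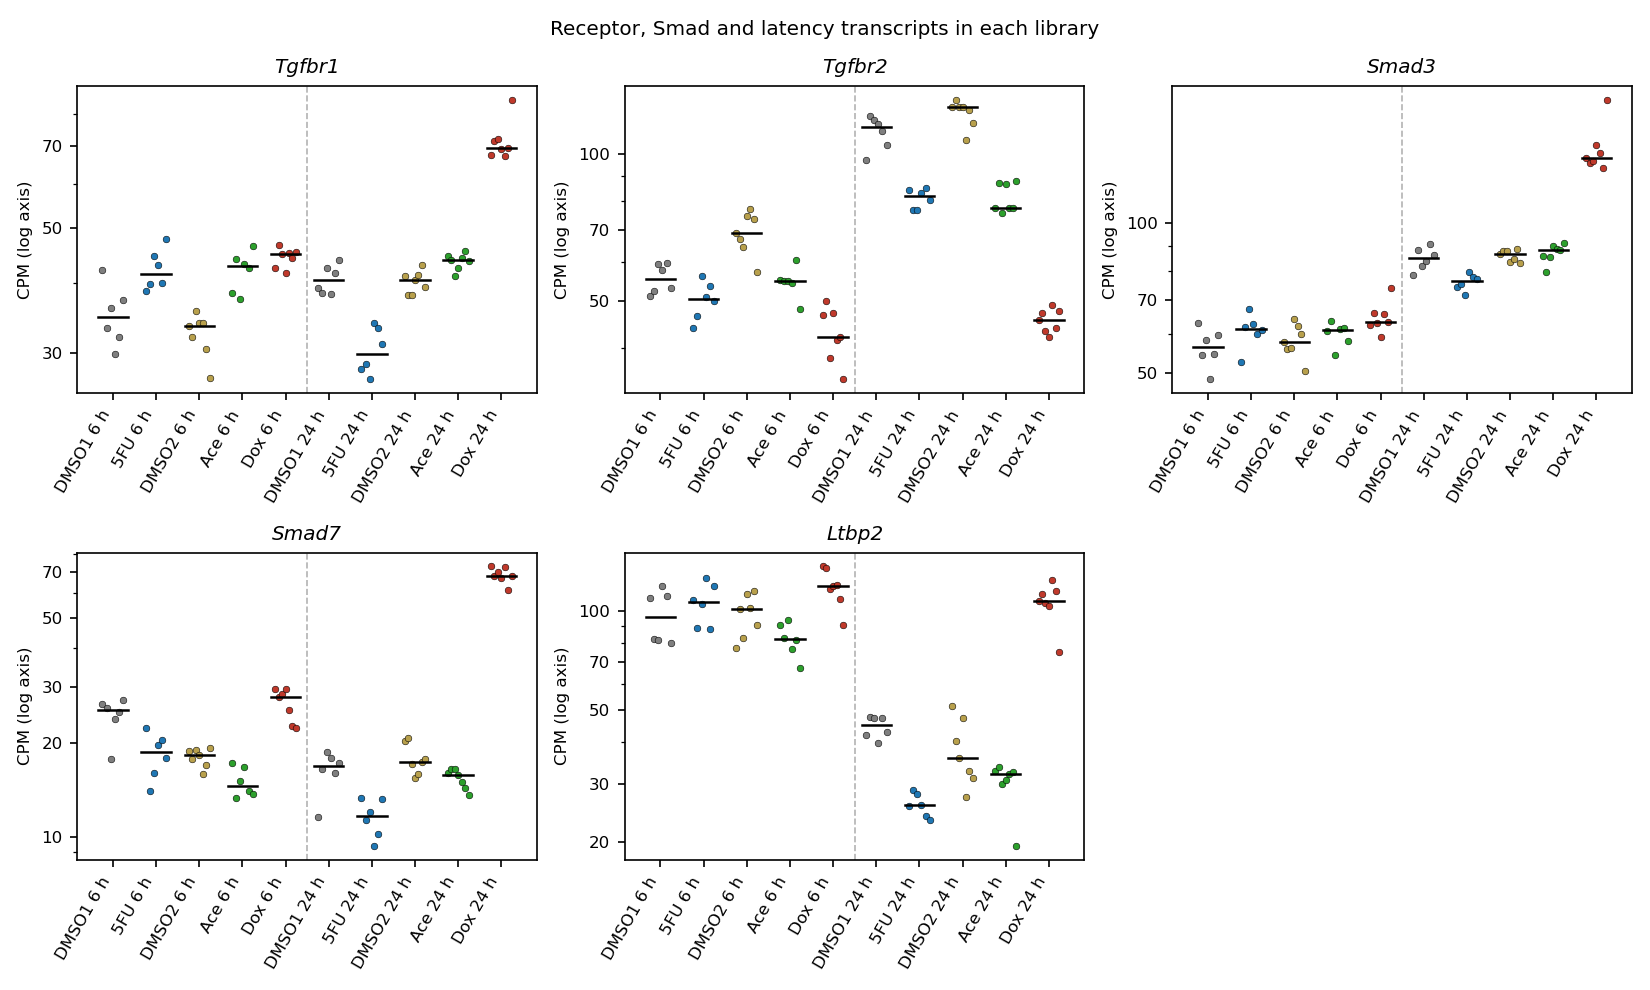
CPM (log axis) of Tgfbr1, Tgfbr2, Smad3, Smad7 and Ltbp2 in each of the 65 libraries, with a bar at each group median and a dashed line between 6 and 24 h. In Dox at 24 h the Tgfbr1, Smad3 and Smad7 libraries lie above those of all other groups, whereas the Tgfbr2 libraries (42.3 to 49.1 CPM) lie below all other libraries of 24 h.

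The receptor genes moved in opposite directions under Dox. Tgfbr2, the type II receptor that binds the ligand, had 34.6, 42.3 and 49.96 CPM under Dox at 6 h and 42.3, 45.6 and 49.1 at 24 h. In DMSO2 it had 57.4, 69.0 and 77.2 at 6 h and 107, 125 and 129 at 24 h. The level thus rose with culture time in DMSO2 and stayed low with Dox, and no Dox library reached the lowest DMSO2 library at either time. The falls were -0.68 ± 0.06 (edgeR FDR = 3e-15) and -1.41 ± 0.06 (edgeR FDR = 1.3e-30), the second by a factor of 2.66, and the effect at 24 h minus that at 6 h was -0.73 ± 0.09 (edgeR FDR = 5.2e-11). Under Ace Tgfbr2 fell at both times, -0.33 ± 0.06 (edgeR FDR = 1.8e-05) and -0.57 ± 0.06 (edgeR FDR = 2.8e-12), the second with no overlap (75.7, 77.6 and 87.8 CPM). Under 5FU it fell at 24 h, -0.45 ± 0.07 (edgeR FDR = 1.8e-08), where the libraries had 76.7, 82.0 and 85.3 CPM against 97.3, 113 and 119 in DMSO1. The 6 h value for 5FU was -0.15 ± 0.07 (edgeR FDR = 0.054) against DMSO1 and -0.46 (edgeR FDR = 8.5e-09) against DMSO2. DMSO1 was itself below DMSO2 at 6 h, -0.31 ± 0.06 (edgeR FDR = 0.00015).

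Tgfbr1, the type I receptor kinase, rose under Dox at both times. Its libraries had 41.6, 45 and 46.7 CPM at 6 h against 27.1, 33.4 and 35.6 in DMSO2, and 67.2, 69.4 and 84.7 at 24 h against 37.9, 40.4 and 43. Neither pair overlapped. The rises were 0.46 ± 0.06 (edgeR FDR = 5.2e-10) and 0.84 ± 0.06 (edgeR FDR = 8.4e-21). Without the 3 libraries, among them the highest of Dox at 24 h, the second was 0.79 ± 0.06 (edgeR FDR = 1.9e-19). Under Ace it rose at 6 h, with 37.4, 42.8 and 46.4 CPM, 0.38 ± 0.06 (edgeR FDR = 8.1e-07), and at 24 h the value was 0.12 ± 0.06 (edgeR FDR = 0.085). Under 5FU the direction turned between the times, 0.27 ± 0.06 (edgeR FDR = 0.00023) at 6 h with overlapping libraries and -0.42 ± 0.06 (edgeR FDR = 6.8e-08) at 24 h, when 5FU had 26.9, 29.8 and 33.9 CPM and DMSO1 38.1, 40.4 and 43.9 with no overlap. The difference between these effects was -0.69 ± 0.09 (edgeR FDR = 3.5e-09).

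Smad3, the signal carrier downstream of the receptors, was called under Dox, and under 5FU at 24 h only with some changes to the fit. At 24 h the Dox libraries had 129, 135 and 176 CPM and DMSO2 83.1, 86.4 and 88.4, far apart, for a 1.64-fold rise, 0.71 ± 0.05 (edgeR FDR = 1.5e-19). Without the 3 libraries, among them the highest of Dox at 24 h, this rise was 0.65 ± 0.05 (edgeR FDR = 7.4e-20). At 6 h the libraries overlapped, 59.3, 63.3 and 74.0 CPM against 50.6, 57.8 and 64.1, and the small rise of 0.16 ± 0.05 (edgeR FDR = 0.0073) rests on the scaling: it was 0.0049 (edgeR FDR = 0.94) with library totals alone, and 0.13 ± 0.05 (edgeR FDR = 0.016) without the 3 libraries. The 24 h values for 5FU and Ace were -0.16 ± 0.06 (edgeR FDR = 0.013) and 0.02 ± 0.05 (edgeR FDR = 0.82). The 5FU value passed against DMSO2, -0.18 (edgeR FDR = 0.0039). It also passed without the 3 libraries, -0.17 ± 0.05 (edgeR FDR = 0.0023), none of which is in the groups compared.

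Smad7, the inhibitor that Smad signalling itself induces, rose under Dox at both times and most at 24 h. The libraries had 22.3, 28 and 29.7 CPM under Dox and 15.9, 18.2 and 19.2 in DMSO2 at 6 h, then 61.5, 68.1 and 72.9 and 15.4, 17.4 and 20.6 at 24 h. Dox and DMSO2 did not overlap at either time, and the Dox libraries at 24 h lay above all others in the series. The rises were 0.57 ± 0.09 (edgeR FDR = 6.1e-08) and 1.95 ± 0.09 (edgeR FDR = 3.1e-30), the second 3.85-fold, and they differed by 1.38 ± 0.12 (edgeR FDR = 1.3e-15). Under 5FU at 24 h the libraries had 9.40, 11.7 and 13.4 CPM and DMSO1 11.6, 16.9 and 18.7, overlapping at library 1 of DMSO1 alone, a change of -0.49 ± 0.10 (edgeR FDR = 2.4e-05). The 6 h fall, -0.41 ± 0.09 (edgeR FDR = 0.00020), depends on the control. DMSO1 exceeded DMSO2 by 0.44 ± 0.09 (edgeR FDR = 0.00017) at that time. Against DMSO2 the 5FU libraries differed by 0.031 (edgeR FDR = 0.79). The Ace values were -0.26 ± 0.09 (edgeR FDR = 0.022) and -0.21 ± 0.09 (edgeR FDR = 0.052).

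**Figure D3:**
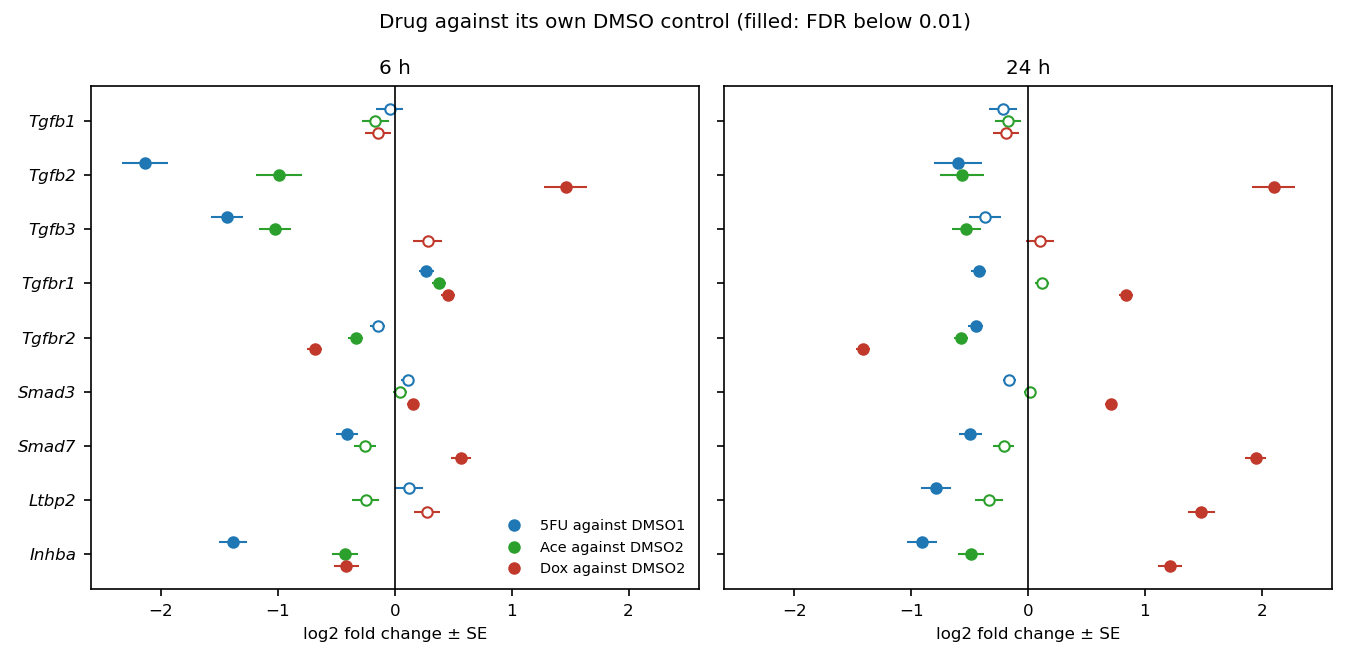
Log2 fold change ± SE of the 9 genes in the 6 drug comparisons, 6 h on the left and 24 h on the right, with filled symbols for an FDR below 0.01. At 24 h the Dox values run from -1.41 (Tgfbr2) to 2.10 (Tgfb2), while no filled 5FU or Ace value lies above 0.

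Counted over the 9 genes, 6 rose and 1 fell under Dox at 24 h, where 81.4% of all 14554 genes were called, 40.4% higher and 41% lower. At 6 h 4 of the 9 rose and 2 fell, where 64.2% of all genes were called, 31.5% higher and 32.7% lower. The share called in all was near that of the table at both times, and the split by direction was not tested. The median log2 fold change of the 9 was 0.84 at 24 h, beside 0.0028 over all genes, and the median size of change 1.21 beside 0.77. In 7 of the 9 the Dox and DMSO2 libraries of 24 h did not overlap, as in 68.2% of all genes. At 6 h this held for 4, against 42.6%.

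Under 5FU at 24 h, 6 of the 9 fell and none rose, where 55.8% of all genes were called, 28% higher and 27.8% lower. The median was -0.45 beside -0.0094 over all genes, and 5 genes had separate libraries, as did 42.9% of the table. At 6 h 1 rose and 4 fell against DMSO1, where 47.9% of all genes were called, 23.4% higher and 24.5% lower. Separate libraries were found for 2 of the 9 at 6 h, against 28.2% of all genes. Under Ace, 1 rose and 4 fell at 6 h, where 31.7% of all genes were called, 16.5% higher and 15.2% lower. At 24 h 4 fell and none rose, where 37.2% were called, 18.2% higher and 19.1% lower. Separate libraries were found for 3 genes at 6 h, against 24.5%, and for 4 at 24 h, against 26.9%. The median for Ace at 24 h was -0.33 beside -0.00082 over all genes. Ace and Dox share their DMSO2 libraries, so their values are not independent of each other. Without the 3 libraries that stood apart, 5 rose and 2 fell under Dox at 6 h (64.3% of all genes called) and 6 rose and 1 fell at 24 h (80.8%). In that fit 1 rose and 4 fell under 5FU at 6 h (47.7%) and 8 fell at 24 h (57.2%), and under Ace 1 rose and 4 fell at 6 h (33.8%) and 5 fell at 24 h (39.2%). None of the 3 libraries is in the groups compared for 5FU at 24 h or for Ace at either time. The calls gained there came with smaller SEs of the shared fit. With DMSO2 as the control of 5FU, 1 rose and 3 fell at 6 h (53.8%), and at 24 h all but Tgfb1 fell (61.4%).

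The effects of the drugs at 24 h were also compared directly. Dox minus Ace, from which the shared DMSO2 libraries cancel, was higher for 7 genes and lower for Tgfbr2 (80.6% of all genes called, 40.7% higher and 39.9% lower), from -0.84 ± 0.06 (edgeR FDR = 1.7e-19) to 2.67 ± 0.19 (edgeR FDR = 2.6e-20). Dox minus 5FU, each against its own control, was higher for 6 and lower for Tgfbr2 (71.1% called, 35.8% higher and 35.4% lower). For Ace minus 5FU 1 gene passed (37.3%), Tgfbr1 with 0.54 ± 0.09 (edgeR FDR = 5.3e-07), and the 95% intervals for the other 8 ran from -0.53 to 0.80 on the log2 scale. Tgfb1 was called in none of these 3 comparisons, with an interval of -0.23 to 0.21 for Dox minus Ace.

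The effects at 24 and 6 h differed for 6 of the 9 genes under 5FU (39.5% of all genes) and for 6 under Dox (64.8%). Under Ace none was called (11.6%) by edgeR's test, with 3 at an unadjusted p below 0.05 and the same count of 0 with DESeq2. Under Dox the effect grew in the direction it had at 6 h for Tgfbr1 (by 0.38 ± 0.08) and Smad7, and fell further for Tgfbr2. Smad3 gained 0.55 ± 0.08, but its small 6 h rise rests on the scaling, as given above. Ltbp2 gained 1.2 ± 0.16. Under 5FU the effects at 24 h minus those at 6 h were 1.54 ± 0.28 for Tgfb2 and 1.06 ± 0.19 for Tgfb3 against DMSO1. With DMSO2 as the control both turned sign and neither passed, -0.29 ± 0.27 (edgeR FDR = 0.38) and -0.21 ± 0.19 (edgeR FDR = 0.36). The differences between the times for Ltbp2, Smad3 and both receptors had a negative sign. They were -0.90 ± 0.18 for Ltbp2, -0.69 ± 0.09 for Tgfbr1, -0.27 ± 0.08 for Smad3 and -0.30 ± 0.09 for Tgfbr2. Against DMSO2 these were -0.67 ± 0.17 (edgeR FDR = 0.00061), -0.79 ± 0.09 (edgeR FDR = 1.5e-11), -0.24 ± 0.08 (edgeR FDR = 0.0068) and -0.12 ± 0.09 (edgeR FDR = 0.26), the last no longer called, and Smad7 was called in addition, -0.65 ± 0.13 (edgeR FDR = 4.4e-05), which made 4 of the 9, where 43.6% of all genes were called.

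Taking the mean of both DMSO groups, 8 of the 9 genes changed between 6 and 24 h, where 64.6% of all genes were called, 32.7% higher and 31.9% lower. Higher at 24 h were Tgfbr2, 0.90 ± 0.04 (edgeR FDR = 5.2e-27), Smad3, 0.58 ± 0.04 (edgeR FDR = 1.5e-20), and Tgfbr1, 0.26 ± 0.04 (edgeR FDR = 3.3e-07), and lower was Ltbp2, given above. These 4 were called in the same direction in DMSO1 and in DMSO2 taken alone. The other 4 differed in call or direction between the controls when each was fitted alone, after the data were seen. Tgfb2, -1.11 ± 0.13 (edgeR FDR = 6.6e-11) on average, was -2.02 ± 0.20 (edgeR FDR = 1.3e-13) in DMSO1 and -0.19 ± 0.18 (edgeR FDR = 0.36) in DMSO2. Tgfb3, -0.27 ± 0.09 (edgeR FDR = 0.0071) on average, fell in DMSO1, -0.90 ± 0.13 (edgeR FDR = 1.9e-08), and rose in DMSO2 with no overlap, 0.37 ± 0.12 (edgeR FDR = 0.0074). Inhba, -0.49 ± 0.08 (edgeR FDR = 1.2e-07), and Smad7, -0.30 ± 0.07 (edgeR FDR = 5.8e-05), were called lower in DMSO1, -0.85 ± 0.12 (edgeR FDR = 3.1e-09) and -0.58 ± 0.10 (edgeR FDR = 4.2e-07), and not in DMSO2, -0.13 ± 0.11 (edgeR FDR = 0.29) and -0.02 ± 0.09 (edgeR FDR = 0.88). In all, 3 rose and 5 fell in DMSO1 (53.8% of all genes called) and 4 rose and 1 fell in DMSO2 (52.6%). The controls themselves differed at 6 h in 4 genes, 3 higher in DMSO1 and Tgfbr2 lower (16.5% of all genes called, 9.87% higher and 6.6% lower), and none of the 9 had separate libraries, against 5.07% of all genes. Without the 3 libraries, among them the DMSO1 library lowest in Inhba, Inhba was called higher in DMSO1 too, 0.39 ± 0.10 (edgeR FDR = 0.0027). At 24 h none of the 9 was called by edgeR's test (0.433%), with 3 at an unadjusted p below 0.05, and none with DESeq2. Inhba came nearest, -0.39 ± 0.11 (edgeR FDR = 0.046).

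The other genes of the pathway were described from a list of 97, of which 92 were in the table. Under Dox at 24 h 44 of them rose and 34 fell. Under 5FU 12 rose and 53 fell, and under Ace 4 rose and 47 fell. At 6 h the counts were 28 higher and 32 lower for Dox, 14 and 28 for 5FU, and 7 and 32 for Ace. The shares called at 6 h were 65.2%, 45.7% and 42.4% in that order, beside 64.2%, 47.9% and 31.7% over all genes. Between the controls at 6 h, 16 were higher and 17 lower in DMSO1 than in DMSO2, 35.9% beside 16.5% of all genes. The shares called were 84.8%, 70.7% and 55.4% for Dox, 5FU and Ace at 24 h, beside the 81.4%, 55.8% and 37.2% over all genes. The median log2 fold changes of the 92 were 0.28, -0.42 and -0.44. The counts in the lists below stand beside the shares of all genes called higher and lower. At 24 h these were 40.4% and 41% for Dox, 28% and 27.8% for 5FU, and 18.2% and 19.1% for Ace. At 6 h they were 31.5% and 32.7%, 23.4% and 24.5%, and 16.5% and 15.2%, in the same order. Largest changes named below are those among called genes with a mean of at least 100 counts.

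Of 11 further ligands, 7 rose and 4 fell under Dox at 24 h, with a median of 0.94. Inhbb, the beta B subunit of activin, rose from 1.87 to 32.3 CPM at the median (4.14 ± 0.14, edgeR FDR = 8.5e-37) and was already up at 6 h (3.57 ± 0.15, edgeR FDR = 1.4e-30). Inha, the alpha subunit that turns activins into inhibins, rose by 1.81 ± 0.09 (edgeR FDR = 8e-29), and Bmp2, a ligand of the bone morphogenetic protein branch, by 1.94 ± 0.12 (edgeR FDR = 1.1e-22). Bmp6 and Gdf11 fell, -0.67 ± 0.12 and -0.34 ± 0.08. In contrast 7 of the 11 fell and 1 rose under 5FU at 24 h (median -1.02), and 8 fell and 1 rose under Ace (-0.62). Bmp4 was among the largest falls in both, -1.32 ± 0.14 and -1.24 ± 0.12, and Gdf11 was the riser in both, 0.26 ± 0.08 and 0.53 ± 0.08.

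Of 14 latency and activation genes in the table, 12 fell under 5FU at 24 h with a median of -0.99, 11 fell under Ace (-0.70), and none rose under either. Under Dox 7 fell and 4 rose (-0.47). Itgb6, the integrin subunit that releases active TGF-beta from its complex, fell under each drug, -2.23 ± 0.21, -1.35 ± 0.18 and -2.71 ± 0.21 for 5FU, Ace and Dox. Thbs1, thrombospondin, a matrix protein that can activate the latent ligand, had 227, 297 and 413 CPM under Dox and 162, 188 and 212 in DMSO2, above it in all libraries by a narrow margin, 0.78 ± 0.17 (edgeR FDR = 3.8e-05). At 6 h it fell under 5FU and Ace, -1.93 ± 0.19 and -1.37 ± 0.19. Ltbp1, the binding protein that holds latent TGF-beta in the matrix, fell under 5FU and Ace, -0.77 ± 0.10 and -0.58 ± 0.09, and rose slightly under Dox, 0.26 ± 0.09 (edgeR FDR = 0.0084). Ltbp4 fell under Dox and Ace, -1.82 ± 0.12 and -1.22 ± 0.12.

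Inhibitors of the ligands outside the cell numbered 10. Under Dox at 24 h 4 rose and 4 fell. Chrd, chordin, which binds bone morphogenetic proteins, had 81.5, 93.6 and 124 CPM under Dox and 2.85, 3.54 and 3.93 in DMSO2, 4.78 ± 0.10 (edgeR FDR = 1.2e-47). Fst, follistatin, which binds activins, had 12.5, 22.2 and 28.1 CPM against 0.757, 1.2 and 1.81, 4.24 ± 0.20 (edgeR FDR = 1.3e-29). Both were already higher at 6 h, by 3.31 ± 0.11 and 1.58 ± 0.18. The matrix proteoglycans Dcn and Bgn fell under Dox, -2.10 ± 0.08 and -1.51 ± 0.09, and both fell at 24 h under 5FU and Ace too. Dcn is also among the fibroblast markers.

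Of 11 further receptors, 4 rose and 5 fell under Dox at 24 h. Tgfbr3, the co-receptor for Tgfb2, fell under every drug at both times. It had 22.5, 31.5 and 34.4 CPM under Dox and 116, 128 and 142 in DMSO2 at 24 h, with no overlap, -2.13 ± 0.09 (edgeR FDR = 2.3e-31). Acvrl1, a type I receptor of endothelial cells, fell under Dox, 5FU and Ace, -1.89 ± 0.12, -1.28 ± 0.13 and -0.97 ± 0.11. Bmpr2 and Acvr2a, type II receptors for bone morphogenetic proteins and activins, rose under Dox by 1.21 ± 0.06 and 0.72 ± 0.05. Of 16 other Smads and their partners 11 rose and 2 fell under Dox at 24 h (median 0.38). The co-repressors Skil and Ski rose by 1.76 ± 0.09 (edgeR FDR = 2.3e-27) and 1.51 ± 0.06 (edgeR FDR = 6.2e-32), and the ubiquitin ligase Smurf1 fell, -0.65 ± 0.05. Ski rose at 24 h under 5FU and Ace as well, 0.64 ± 0.07 and 0.21 ± 0.06.

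**Figure D4:**
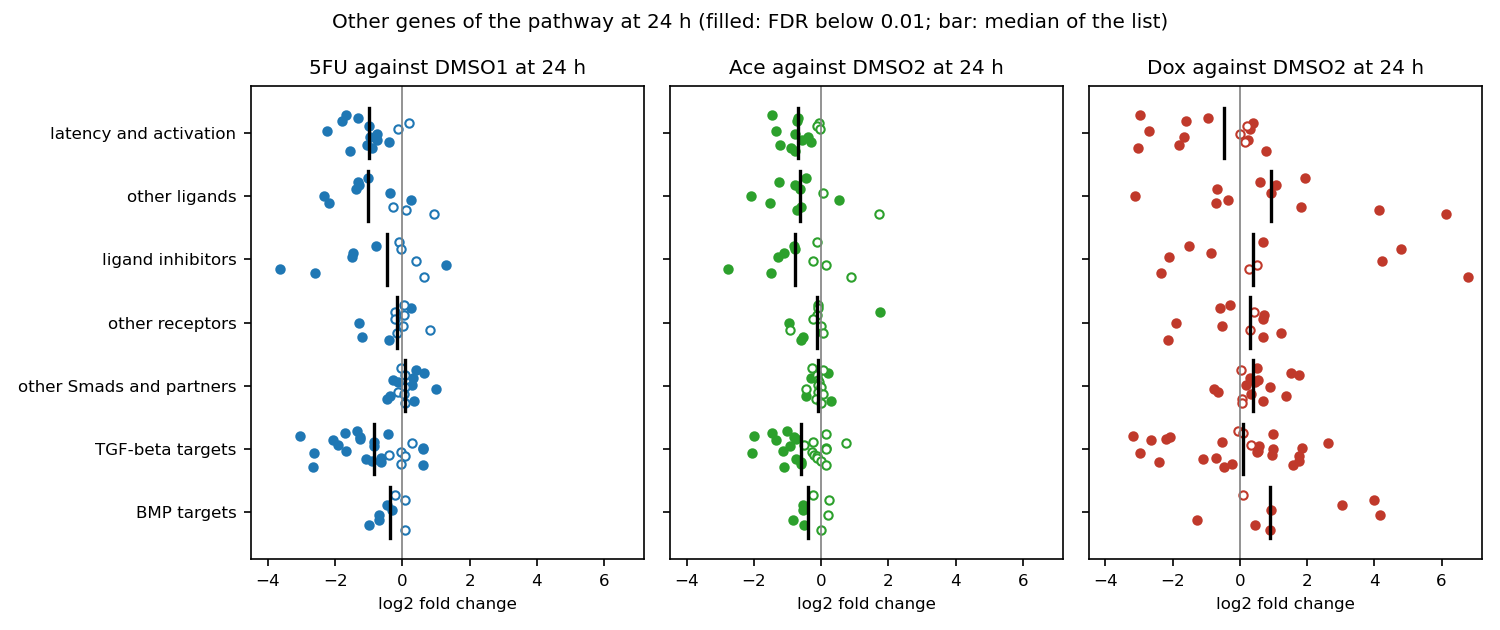
Log2 fold changes at 24 h of the other 92 pathway genes in 7 lists for 5FU, Ace and Dox, with filled symbols for an FDR below 0.01 and a bar at the list median. Latency and activation genes have medians of -0.99, -0.70 and -0.47 for 5FU, Ace and Dox, and the list of other ligands has -1.02, -0.62 and 0.94. A gene may stand in 2 lists.

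Target genes of TGF-beta, 25 in the list, fell in part under 5FU and Ace and divided under Dox. At 6 h 7 fell and 3 rose under 5FU, 11 fell and none rose under Ace, and 11 fell and 6 rose under Dox. At 24 h 17 fell and 3 rose under 5FU (median -0.85), 13 fell and none rose under Ace (-0.59), and 11 rose and 11 fell under Dox (0.08). The matrix genes Cilp and Postn had the largest falls under Dox, -3.18 ± 0.20 (edgeR FDR = 2.2e-23) and -2.98 ± 0.14 (edgeR FDR = 1.2e-29), and fell under Ace too, -1.99 ± 0.18 and -2.05 ± 0.13. Skil, given above, and the early response gene Junb (1.83 ± 0.09, edgeR FDR = 2.1e-27) had the largest rises. Ccn2, the connective tissue growth factor, fell under 5FU and Ace, -1.71 ± 0.24 (edgeR FDR = 6e-09) and -1.47 ± 0.20 (edgeR FDR = 1.2e-08), and did not pass under Dox at 24 h, 0.08 ± 0.19 (edgeR FDR = 0.70), after a fall at 6 h, -0.98 ± 0.21. Pmepa1, a Smad target that dampens signalling, fell under Dox at 6 h, -0.61 ± 0.10 (edgeR FDR = 5.2e-07), and rose at 24 h, 0.52 ± 0.10 (edgeR FDR = 8.2e-06). In DMSO1 at 6 h Ccn2 stood 2.0 ± 0.20 above DMSO2, a larger difference than its 5FU fall at that time (-0.89 ± 0.21). The 5FU level thus lay above that of DMSO2, and the direction of the 6 h change depends on the control.

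Targets of the bone morphogenetic protein branch numbered 8. Under Dox 5 rose and 1 fell at 6 h, and 6 rose and 1 fell at 24 h (median 0.91). Id1, an inhibitor of differentiation, had 114, 125 and 132 CPM under Dox at 24 h and 6.20, 7.65 and 10.3 in DMSO2, 3.98 ± 0.11 (edgeR FDR = 4e-41). It was at 33.8 CPM at 6 h, 1.38 ± 0.10 (edgeR FDR = 1.1e-18). Id4 rose by 4.18 ± 0.13 (edgeR FDR = 2.6e-38). Under 5FU at 24 h 5 of the 8 fell and under Ace 4, and Id1 did not pass, 0.07 ± 0.13 (edgeR FDR = 0.67) and 0.24 ± 0.12 (edgeR FDR = 0.088). Without the 3 libraries, the 92 genes had 46 higher and 33 lower under Dox at 24 h and 30 and 30 at 6 h. Of all genes, 80.8% and 64.3% were called in that fit.

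Markers of other cells moved with these changes. At 24 h the summed fibroblast markers were 1851 to 3869.5 CPM under Dox and 13658 to 17543 in DMSO2, with 9 of 10 called lower. They were 6972 to 8933 under Ace, and 5043 to 5709.6 under 5FU against 9353 to 18810.0 in DMSO1, with 9 lower under each. Endothelial markers under Dox were 26.7 to 58.3 against 290.1 to 381 CPM, with 9 of 9 lower, and macrophage markers 25.7 to 37.2 against 72.6 to 94.3, also 9 of 9. Cardiomyocyte markers fell as well, 13183 to 18727 against 40872 to 53388 CPM, with 11 of 12 lower. Of all genes, 41% were called lower under Dox at 24 h, 27.8% under 5FU and 19.1% under Ace. Under Dox at 24 h the falls of Tgfbr2, Tgfbr3 and the matrix targets thus went with lower markers of fibroblasts, endothelium and cardiomyocytes at once. Tgfbr2 also fell under Ace at 24 h, where the cardiomyocyte sum, 40342 to 58076 CPM, overlapped that of DMSO2. It fell under Dox at 6 h too, where this sum was 41261 to 58504 CPM against 43539 to 49211 in DMSO2. The part of a changed cell makeup in any of these falls was not tested. Of 8 smooth muscle markers 3 rose and 4 fell under Dox at 24 h, and their sum was 446 to 1766 CPM against 996 to 1144. At 6 h it was 1275 to 3523 under Dox, 1234 to 4507 in DMSO1 and 1172 to 1535 in DMSO2, the first a pair of groups in which Tgfb2 was also high. In 5FU at 6 h the sum was 1690.3 to 2943 CPM while Tgfb2 was low, at 28.5 to 63.8 CPM. Acta2 and Tagln make up part of this sum and of the TGF-beta target list. The sums of epicardial markers overlapped, 35.8 to 52 CPM under Dox and 36.7 to 47.2 in DMSO2.

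**Figure D5:**
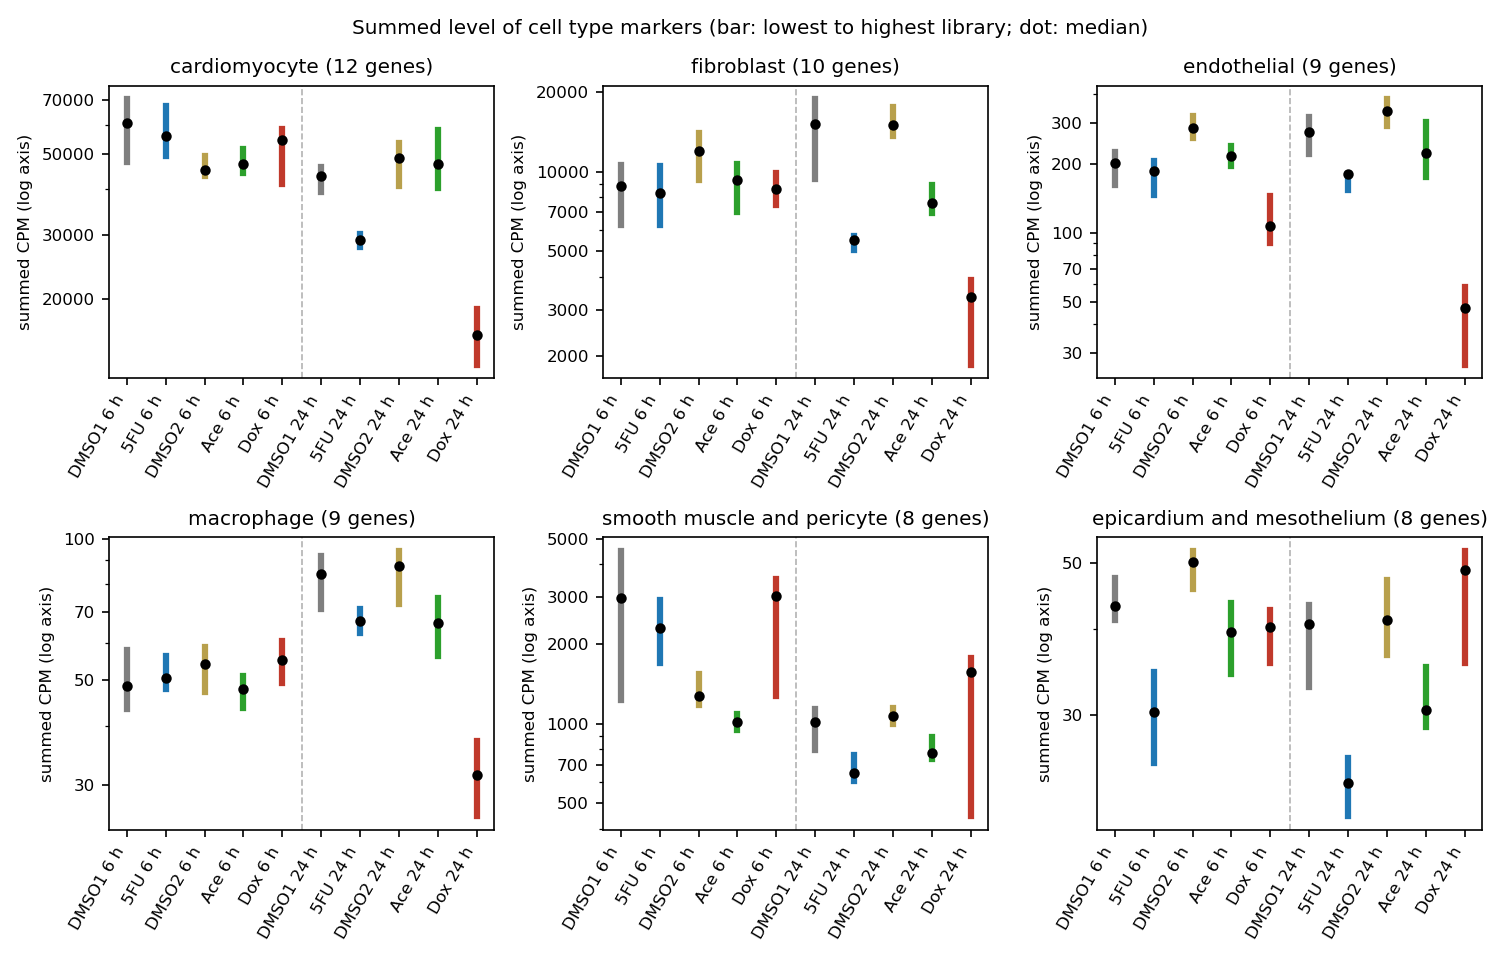
Summed CPM (log axis) of markers of 6 cell types in the 10 groups, with a bar from the lowest to the highest library and a dot at the median, and a dashed line between 6 and 24 h. Fibroblast, endothelial, macrophage and cardiomyocyte sums are lowest in Dox at 24 h, and the smooth muscle sum is highest in Dox and DMSO1 at 6 h (medians 3040 and 2990 CPM).

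Over the 10 group means, the gene most like each of the 9 was sought among 6632 genes with a mean count of at least 100 and a range of at least 1 on the log2 scale. The correlations describe 10 points that share libraries and carry no p. For Smad7 it was Ccnd1 (Pearson's r = 0.989), for Smad3 Tmem8b (0.987), for Tgfbr2 Tbc1d2b (0.983) and for Ltbp2 Thoc6 (0.981), followed by Inha (0.978). For Tgfbr1 it was Wsb1 (0.972), for Inhba Mdn1 (0.969), for Tgfb2 Smim3 (0.957) and for Tgfb1 Car3 (0.946). Tgfb3 had the weakest match, Lrrfip1 (0.890). Among the 9 themselves the most alike pair was Tgfb2 and Smad7 (0.868) and the most opposed was Tgfbr2 and Ltbp2 (-0.808).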

How the data were processed

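The authors pseudo-aligned paired reads of polyA RNA to the Ensembl rat transcriptome with kallisto 0.46.0, summed transcripts to Entrez genes by tximport, leaving out genes of low count. The values they deposited are whole-number gene counts, not normalized, for 14554 genes in 65 libraries of 10 groups, with totals from 14332827 to 25738297. A second deposited file holds the authors' own comparisons (fold changes and p-values) and was not used. Columns name the group and not the replicate, so library numbers follow column order and only name a library. Symbols for 14009 genes and the promoters came from RefSeq (GRCr8).

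Counts were scaled by TMM (factors 0.859 to 1.07) and fitted in a single model of the 10 groups with edgeR 4.0.16 (quasi-likelihood test, R 4.3.3, limma 3.58.1), and 15 comparisons were drawn from it. A gene was called at a Benjamini-Hochberg FDR below 0.01 over all genes. A filter of at least 10 counts in at least 1 library removed no gene. A fold change of a gene with few counts depends on edgeR's prior. The steps were tested on simulated counts for Dox against DMSO2 at 24 h, with few genes changed and rises and falls balanced. That simulation did not test the scaling where most genes change, as they did in this comparison. CPM came from TMM-scaled totals without length correction.

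The 9 genes and all gene lists were chosen with earlier results of these data known. Named were the 9 and the genes most like each of them. Those from the other lists were taken from the 2 largest rises and falls per list and drug comparison. Only called genes with a mean of at least 100 counts were ranked. Ccn2, Skil, Pmepa1, Tgfbr3, Ltbp1, Id1 and Fst were named whatever their rank. Not every gene or comparison that this rule covers is given in the text. A further gene of this rule is not reported here. Alternatives were DESeq2 1.42.0, its size factors, library totals without TMM, fits of the compared groups only, another filter or none, an FDR of 0.1, a log2 fold change of at least 1, and each library left out in turn. DMSO2 as the control of 5FU, time within each control and the removal of 3 libraries were added after the data were seen.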

Additional observations from a re-analysis of the deposited data

Results flagged for a closer look

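Of 90 sets of libraries (9 genes in 10 groups), 9 held a library far from the rest of its group by Dixon's criterion, where chance alone gives about 1 in 20. Library 7 of Dox at 24 h accounted for 4 of them: it was lowest for Tgfb1 (31.4 CPM, nearest 49.6) and Ltbp2 (75.3, nearest 104) and highest for Tgfbr1 (84.7, nearest 72.0) and Smad3 (176, nearest 143). Library 4 of the same group was lowest for Tgfb2 (171 CPM, nearest 209). Library 3 of DMSO1 at 6 h was lowest for Smad7 (17.7 CPM, nearest 23.9). Library 7 of Ace at 24 h was lowest for Ltbp2 (19.5 CPM, nearest 29.8) and highest for Inhba (8.26, nearest 6.97). Library 1 of 5FU at 6 h was highest for Inhba (7.16 CPM, nearest 4.89).

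The effect of a drug at 24 h differed from that at 6 h in 12 of 27 tests of the difference, all by edgeR's test at an FDR below 0.01. The values are log2 effects at 24 h minus those at 6 h. Under 5FU they were 1.54 for Tgfb2, 1.06 for Tgfb3, -0.69 for Tgfbr1, -0.30 for Tgfbr2, -0.27 for Smad3 and -0.90 for Ltbp2. With DMSO2 as the control of 5FU the values for Tgfb2 and Tgfb3 turned sign, -0.29 and -0.21, and did not pass. Under Dox they were 0.38 for Tgfbr1, -0.73 for Tgfbr2, 0.55 for Smad3, 1.38 for Smad7, 1.2 for Ltbp2 and 1.63 for Inhba. For Inhba under Dox and Tgfbr1 under 5FU the effects at both times were called, with opposite signs.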

How the results depend on the processing

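The p-values cover cultures of a single cell preparation, and levels carry no length correction. No paired analysis was possible because the columns of the count table carry no replicate numbers. In the text above, 9 genes were counted per comparison, and these counts moved most with the threshold. Requiring a log2 fold change of at least 1 left 3 of 5 for 5FU at 6 h, 0 of 6 for 5FU at 24 h, 1 of 5 for Ace at 6 h, 0 of 4 for Ace at 24 h, 1 of 6 for Dox at 6 h, 2 of 4 for DMSO1 against DMSO2 at 6 h, 2 of 8 for time in the controls, 2 of 6 and 3 of 6 for the 5FU and Dox effects at 24 h minus 6 h, 4 of 8 for Dox minus Ace and 0 of 1 for Ace minus 5FU. An FDR below 0.1 gave 7 for Ace at 24 h, 1 for DMSO1 against DMSO2 at 24 h, 3 for the Ace effect at 24 h minus 6 h and 5 for Ace minus 5FU. Fitting the compared groups only gave 3 and 2 for these last comparisons, and leaving out the 3 libraries gave 1 for the Ace effect at 24 h minus 6 h (Tgfb3). None of the 3 libraries is in an Ace or DMSO2 group. Leaving them out could thus change this count only through the spread and scaling shared by all groups. Why fitting the compared groups only changed the counts was not tested. Each library left out in turn gave 5 to 8 for 5FU at 24 h, 5 to 7 for Dox at 6 h, 7 throughout for Dox at 24 h, 4 to 7 for the 5FU effect at 24 h minus 6 h, 0 to 1 for that of Ace, and 1 to 2 for Ace minus 5FU. Of the single genes, Tgfb1 under 5FU at 6 h, not called, ran from -0.12 to 0.019 and turned sign without library 4 or 5 of DMSO1, and Smad7 under 5FU at 6 h was 0.031 with DMSO2 as the control. With that control the 5FU effect at 24 h minus 6 h turned for Tgfb2 (-0.29), Tgfb3 (-0.21) and Inhba (-0.25, called in neither), and in DMSO2 alone the change with time turned for Tgfb3 (0.37) and 5 genes were called, not 8. Tgfb2 under 5FU and Ace at 24 h also lost its call with edgeR's own filter on low counts. With library totals in place of TMM no drug effect of the 9 genes turned, but the median over all genes moved to -0.15 for Dox at 6 h (3064 genes higher and 5998 lower, against 4589 and 4760) and to 0.27 for the Dox effect at 24 h minus 6 h (6234 and 3379, against 4946 and 4478). The split also moved for 5FU at 6 h (2478 and 4258, against 3408 and 3563), Ace at 24 h (3449 and 2166, against 2645 and 2773), DMSO1 against DMSO2 at 6 h (723 and 1720, against 1436 and 961) and at 24 h (71 and 17, against 20 and 43), the 5FU and Ace effects at 24 h minus 6 h (3440 and 2214, 1402 and 417, against 2961 and 2794, 812 and 882).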

Other observations

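The following 4 genes of the pathway lists were chosen after their values were seen, since they had too few counts for the rule on named genes. Nodal, a ligand known from the early embryo, was at a median of 0 CPM in DMSO2 at 24 h, with a highest library of 0.0946, and had 1.25, 2.15 and 2.71 CPM under Dox, above every library of the other groups of 24 h. Gdf10, a ligand of the same superfamily, went the other way, with 0.113, 0.289 and 0.704 CPM under Dox against 2.48, 2.97 and 5.03 in DMSO2, and was low under Ace as well (0.194, 0.785 and 1.04). Nrros, which anchors latent TGF-beta on macrophages and microglia, had 0.903, 0.997 and 2.04 CPM under Dox and 8.64, 9.90 and 13.3 in DMSO2, -3.02 ± 0.15 (edgeR FDR = 8.1e-28). Macrophage markers fell in the same libraries, and their part in this value was not tested. Fap, a membrane protease of activated fibroblasts, had 0.968, 1.42 and 1.77 CPM under Dox and 9.32, 11.1 and 12.8 in DMSO2, -2.97 ± 0.14 (edgeR FDR = 2.7e-29). Under Ace it had 3.41, 3.59 and 5.44 CPM, also below every DMSO2 library.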
